A study of Homo sapiens with 9 samples.

Results

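The 28 genes described here are the enzymes, regulators and handling proteins of cholesterol synthesis under the transcription factor SREBP2. They were taken as the lines of the expression table whose gene name equals a listed symbol, and each symbol had 1 line among the 62703 lines of the table. The cells were labelled HepG2, a line from a human liver cancer, and messenger RNA was measured in 3 groups of 3 libraries. Every group had 24 h of 750 µM palmitic acid, a common saturated fatty acid. One group had nothing more, another went on to 12 h of 20 µM curcumin, the yellow polyphenol of turmeric, and in the last 5 µM CuCl2 was given with 20 µM curcumin over the same 12 h. Neither untreated cells, nor a vehicle, nor a 12 h extension of palmitic acid alone is among the labelled groups, so any difference from palmitic acid alone includes those 12 h. Values are in TPM, a unit of transcript abundance scaled to gene length and to the same total in every library. Genes averaging 1 TPM or more over the 9 libraries were tested, which were 26 of the 28 members and 13443 genes in all.

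Cholesterol is built from acetyl-CoA through the mevalonate pathway, whose isoprenoid products also feed protein prenylation, dolichol and coenzyme Q. Squalene leaves this pathway and is cyclised and trimmed to cholesterol by the later sterol enzymes. SREBP2 is held in the endoplasmic reticulum by the escort protein SCAP and the INSIG proteins while sterols are plentiful. When sterols are low it is carried to the Golgi, cut, and turns on the synthesis genes and INSIG1, which closes the loop. Surplus sterol activates the nuclear receptor LXR, whose targets ABCA1 and MYLIP export cholesterol and lower its uptake.

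The cells did not show the liver genes of their label. All 12 hepatocyte markers examined averaged under 1 TPM, 6 of them (ALB, TTR, APOA2, APOB, FGB and APOH) were at 0 in every library, and their summed level was 0.8 to 1.12 TPM without curcumin, 1.42 to 3.26 in the curcumin group and 1.5 to 2.33 in the group with CuCl2. The summed level of 5 epithelial markers, of which EPCAM and KRT19 averaged under 1 TPM, was 3314 to 3812 TPM, 2505 to 2865 TPM and 2636 to 2715 TPM in the same order. Mitochondrial genes held 10.1% to 13% of the TPM of a library. The number of reads behind a value is unknown, because TPM keeps no record of depth. Fewer cells of one kind and less RNA per cell cannot be told apart in bulk RNA.

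The upstream sequences of 5 members are shown, because these were the members with an unadjusted p under 0.05 in any comparison below. Each runs 5′ to 3′ on the gene's strand, in RefSeq's promoter table for GRCh38.p14, and stops before both the start that RefSeq lists for that window and the gene's start in GENCODE release 29. Capitals mark the sterol regulatory element TCACNCCAC and the NF-Y box CCAAT on either strand. SREBF2 encodes SREBP2 and its stretch is chr22:41832855-41833078 on the plus strand. The stretch of INSIG1 is chr7:155297628-155297775 on the plus strand. IDI1 encodes isopentenyl-diphosphate isomerase, and the stretch before 1 of its 3 RefSeq starts, another of which lies farther upstream, is chr10:1049171-1049369 on the minus strand. MSMO1 encodes the sterol methyl oxidase and its stretch is chr4:165327419-165327622 on the plus strand. TM7SF2 encodes a sterol reductase and its stretch is chr11:65111622-65111844 on the plus strand.
SREBF2: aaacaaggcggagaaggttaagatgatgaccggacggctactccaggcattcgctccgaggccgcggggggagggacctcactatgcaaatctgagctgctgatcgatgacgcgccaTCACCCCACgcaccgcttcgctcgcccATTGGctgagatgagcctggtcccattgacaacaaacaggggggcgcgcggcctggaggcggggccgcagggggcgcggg
INSIG1: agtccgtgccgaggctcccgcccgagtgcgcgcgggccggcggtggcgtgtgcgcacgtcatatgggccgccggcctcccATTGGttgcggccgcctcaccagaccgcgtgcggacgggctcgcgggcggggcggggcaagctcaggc
IDI1: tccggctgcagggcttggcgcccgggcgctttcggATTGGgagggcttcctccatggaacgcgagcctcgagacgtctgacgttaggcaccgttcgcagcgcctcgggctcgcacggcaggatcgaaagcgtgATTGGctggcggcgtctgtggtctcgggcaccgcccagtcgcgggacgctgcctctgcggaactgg
MSMO1: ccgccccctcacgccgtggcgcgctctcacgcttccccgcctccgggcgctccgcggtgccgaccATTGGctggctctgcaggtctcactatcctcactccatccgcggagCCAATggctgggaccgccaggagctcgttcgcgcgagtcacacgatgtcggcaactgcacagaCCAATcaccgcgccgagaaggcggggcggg
TM7SF2: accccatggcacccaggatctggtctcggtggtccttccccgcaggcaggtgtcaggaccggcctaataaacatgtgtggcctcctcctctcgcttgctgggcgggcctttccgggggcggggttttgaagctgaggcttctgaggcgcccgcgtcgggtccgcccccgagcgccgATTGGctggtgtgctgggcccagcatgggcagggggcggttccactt
Of these 5 stretches only that of SREBF2 matched TCACNCCAC. There TCACCCCAC began 133 bases and an NF-Y box 106 bases before the RefSeq start, which lies beyond the end of the printed stretch.

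RefSeq windows of 300 bases, 250 before and 50 after a start, were found for 25 of the 28 members. These were 33 windows, as IDI1 and others have several starts, and ACAT2, FDFT1 and SQLE had none. The sterol regulatory element, searched as TCACNCCAC and its reverse GTGGNGTGA, was in 1 of the 33 windows (3.03%) and in 1.13% of all 35116 windows of the table. The NF-Y box, searched as CCAAT and ATTGG, was in 21 of the 33 (63.6%), belonging to 19 genes, and in 34.6% of all windows. The Sp1 box, searched as GGGCGG and CCGCCC, was in 29 of the 33 (87.9%), belonging to 23 genes, and in 45% of all windows. A window counted once however many matches it held, and a match is a description of letters, not a binding site. An element with other letters, or one outside the window, was not searched for. A window without a match therefore does not show that the gene lacks the element.

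The level of the members in TPM spanned from FDPS at 663 ± 18.5 TPM (mean ± SD of the 9 libraries) down to ABCA1 at 0.00889 TPM. FDPS makes farnesyl diphosphate, the branch point between sterols and isoprenoids, and EBP, a sterol isomerase, was next at 390 ± 30.6 TPM. Squalene synthase FDFT1 followed at 149 ± 10.3 TPM and the first enzyme ACAT2, acetoacetyl-CoA thiolase, at 112 ± 5.58 TPM. The ranges of these 4 genes over the 9 libraries did not overlap: the lowest library of FDPS was at 624 TPM, and EBP lay between 350 and 438, FDFT1 between 130 and 163, and ACAT2 between 106 and 121. FDPS and the sterol dehydrogenase HSD17B7 have pseudogene copies in the annotation, so how reads were divided among the copies is uncertain for both.

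Below these 4, the next 5 genes lay within 1 SD of their neighbours. MVD, which makes isopentenyl diphosphate, averaged 87.8 ± 7.77 TPM, IDI1 83.2 ± 8.29, DHCR7, a last-step sterol reductase, 83.2 ± 7.58, phosphomevalonate kinase PMVK 80.9 ± 9.43 and the demethylase CYP51A1 76.2 ± 10.4. INSIG1 (63.8 ± 9.36), the dehydrogenase NSDHL (62.4 ± 2.05), squalene epoxidase SQLE (57.4 ± 6.01) and GGPS1 (54.9 ± 2.72), which makes geranylgeranyl diphosphate, formed the next run. The desaturase SC5D averaged 49.2 TPM, lanosterol synthase LSS 46.0 TPM, MSMO1 41.1 TPM and SREBF2 41.1 TPM. HSD17B7, mevalonate kinase MVK, LBR (a sterol reductase that also sits in the nuclear envelope) and SCAP averaged between 24.7 and 29.9 TPM. HMGCS1, the cytosolic HMG-CoA synthase, was the lowest of the mevalonate enzymes at 20.2 ± 4.14 TPM.

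Pairs of members with related roles stood at different levels. INSIG1 averaged 63.8 TPM and its relative INSIG2 9.6 TPM. LBR averaged 26 TPM and TM7SF2, which carries out the same reduction, 9.83 TPM. Of the handling genes, the sterol carrier STARD4 averaged 18.6 TPM and the cholesterol esterifying enzyme SOAT1 15.1 TPM. The LXR targets were the 2 members under the limit of 1 TPM. The exporter ABCA1 was at 0 to 0.02 TPM in every library, and MYLIP, a ubiquitin ligase that lowers lipoprotein uptake, was at 0.49 to 1.05 TPM.

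**Figure D1:**
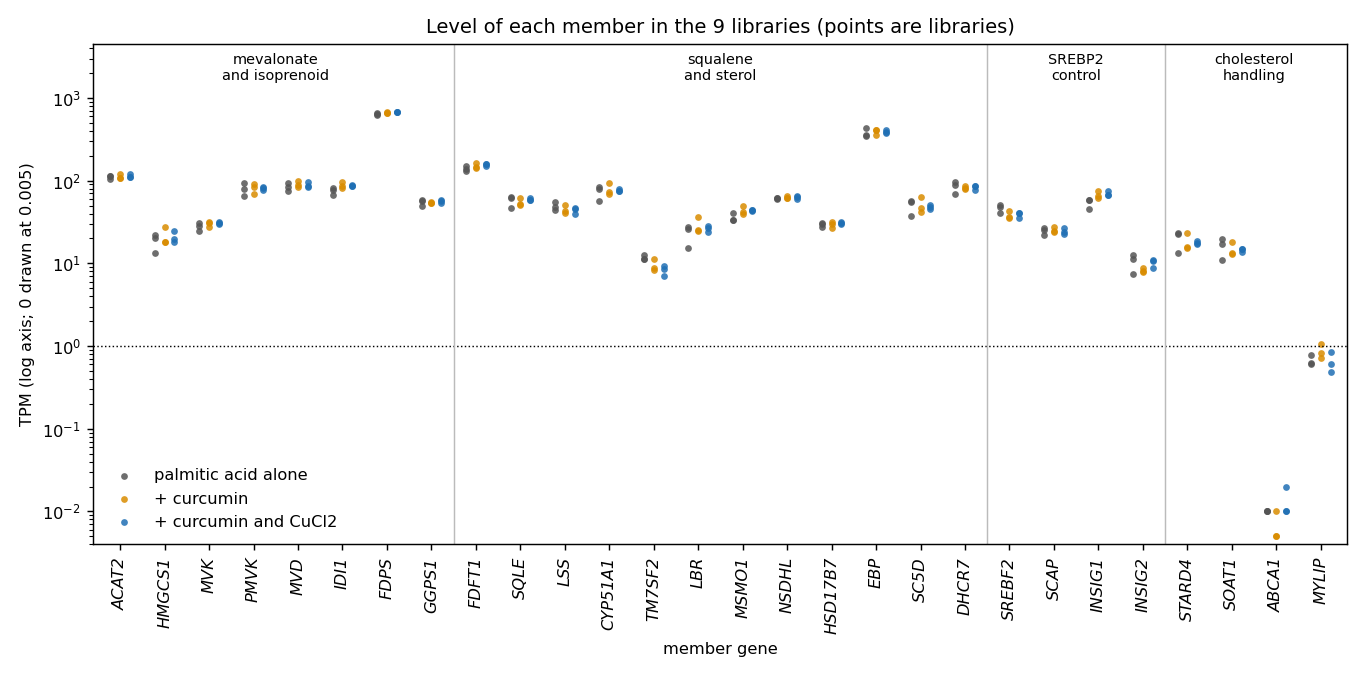
Level of each of the 28 members in TPM on a log axis, with 1 point per library in 3 groups and the dotted line at 1 TPM. FDPS (624 to 683 TPM) and EBP (350 to 438 TPM) stand above the rest, MYLIP lies near the dotted line, and ABCA1 lies at 0 to 0.02 TPM, with 0 drawn at 0.005.

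The first comparison asked which members differed between the curcumin group and palmitic acid alone. None of the 26 members tested passed limma's test at an adjusted p under 0.05 (Benjamini-Hochberg over 13443 genes), where 264 genes, 1.96% of all tested, passed. At an unadjusted p under 0.05 there were 4 members, namely INSIG1, IDI1 and MSMO1 with higher and SREBF2 with lower values, beside 14% of all genes. The log2 fold change, on the log2(TPM + 1) scale here and throughout, lay between -0.30 and 0.34 for the members with a median of 0.03, and the median of all genes was -0.02. It was positive for 16 of the 26 members (61.5%) and for 46.3% of all genes. Without the third library with palmitic acid alone, 12 of 26 members were positive and their median was -0.02, beside -0.09 for all genes. Every library of the curcumin group was above every library with palmitic acid alone for 2 members, FDPS and INSIG1, as for 8.15% of all genes. No member lay below without overlap, as did 8.61% of all genes. The labels do not say that the replicates came from separate cultures, so the p-values rest on a spread between libraries that may be only technical.

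INSIG1 (ENSG00000186480, chr7:155297776-155310235 in GENCODE 29, plus strand) had 58.4, 59 and 45.3 TPM under palmitic acid alone, 61.4, 75.5 and 65 after curcumin, and 67.2, 75.7 and 66.7 after curcumin with CuCl2. All 6 libraries with curcumin were above the 3 without it. The group means were 54.2 ± 7.74, 67.3 ± 7.32 and 69.9 ± 5.07 TPM (SD, n = 3 libraries). Against palmitic acid alone the log2 fold change was 0.31 with curcumin (95% interval 0.04 to 0.58, limma adjusted p = 0.272) and 0.37 with curcumin and CuCl2 (0.10 to 0.64, limma adjusted p = 0.190), neither past the threshold. On leaving out the third library with palmitic acid alone, the lowest of its group, these were 0.19 and 0.25.

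SREBF2 (ENSG00000198911, chr22:41833079-41907308, plus strand) had 50.3, 48.7 and 40.2 TPM under palmitic acid alone, 36.2, 42.6 and 35.6 after curcumin, and 35.5, 40.4 and 40.2 after curcumin with CuCl2. The first and second libraries with palmitic acid alone were above all others, while the third lay among the curcumin libraries. The log2 fold change was -0.28 with curcumin (-0.52 to -0.03, limma adjusted p = 0.292) and -0.25 with curcumin and CuCl2 (-0.50 to -0.0046, limma adjusted p = 0.355), so neither passed. SCAP had 22.1 to 26.4 TPM with palmitic acid alone, 23.9 to 27.2 with curcumin and 22.4 to 26.6 with curcumin and CuCl2, which overlapped throughout.

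INSIG2 had 11.2, 12.7 and 7.48 TPM under palmitic acid alone, 7.87, 8.04 and 8.75 after curcumin, and 8.74, 10.9 and 10.8 after curcumin with CuCl2. The palmitic acid libraries spanned all the others. Its log2 fold change was -0.28 with curcumin (-0.68 to 0.11) and -0.01 with curcumin and CuCl2 (-0.41 to 0.38). They were -0.48 and -0.22 without the third library with palmitic acid alone.

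Of the 8 mevalonate and isoprenoid genes, 6 had positive log2 fold changes with curcumin, with a median of 0.08 over the 8, and all 8 did with curcumin and CuCl2, again with a median of 0.08. Only 5 of the 8 were positive in each comparison without the third library with palmitic acid alone, and ACAT2, HMGCS1 and GGPS1 were negative. IDI1 (ENSG00000067064, chr10:1039152-1049170, minus strand) had 76.9, 81.3 and 66.5 TPM under palmitic acid alone, 81.2, 96 and 86.4 after curcumin, and 85.1, 89.0 and 86.6 after curcumin with CuCl2. One curcumin library lay just below the highest library with palmitic acid alone, and the libraries with CuCl2 lay above all 3. The log2 fold changes were 0.23 (0.02 to 0.43, limma adjusted p = 0.289) and 0.22 (0.01 to 0.42, limma adjusted p = 0.327), neither past the threshold, and 0.15 and 0.13 without the third library with palmitic acid alone.

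FDPS had 643, 624 and 663 TPM under palmitic acid alone, 665, 666 and 668 after curcumin, and 682, 683 and 671 after curcumin with CuCl2. The 3 groups did not overlap, but the steps were small: the log2 fold change was 0.05 (-0.06 to 0.16) with curcumin and 0.08 (-0.03 to 0.19) with curcumin and CuCl2. HMGCS1 had 21.9, 20.3 and 13.3 TPM, then 18.3, 27.8 and 18.3, then 18.1, 24.4 and 19.6 in the same order of groups. Its libraries overlapped fully, and the interval of its log2 fold change with curcumin ran from -0.28 to 0.69. ACAT2 had a log2 fold change of -0.0039 with curcumin (-0.17 to 0.16) and 0.03 with curcumin and CuCl2 (-0.13 to 0.20).

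Among the 12 squalene and sterol enzymes, 8 had positive log2 fold changes in each comparison with palmitic acid alone, with medians of 0.03 and 0.06. With the third library of that group left out, 6 and 5 were positive, with medians of -0.03 and -0.04. MSMO1 (ENSG00000052802, chr4:165327623-165343160, plus strand) had 33.5, 40.7 and 33.7 TPM under palmitic acid alone, 39.8, 49.3 and 42.2 after curcumin, and 44, 43.7 and 43.0 after curcumin with CuCl2. Only 1 curcumin library was below the highest library with palmitic acid alone. The log2 fold change was 0.28 in both comparisons (0.05 to 0.51, limma adjusted p = 0.255, and 0.04 to 0.51, limma adjusted p = 0.260), without passing.

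The 2 reductases of the same step had values of opposite sign when all libraries were used. TM7SF2 (ENSG00000149809, chr11:65111845-65116384, plus strand) had 11.4, 12.7 and 11.2 TPM under palmitic acid alone, 11.3, 8.2 and 8.72 after curcumin, and 8.58, 7.09 and 9.22 after curcumin with CuCl2. The libraries with CuCl2 were all below those with palmitic acid alone, and 1 curcumin library lay among the latter. Its log2 fold change was -0.30 with curcumin (-0.62 to 0.01, limma adjusted p = 0.384) and -0.46 with curcumin and CuCl2 (-0.78 to -0.14, limma adjusted p = 0.164). LBR had 25.8, 27.5 and 15.3 TPM under palmitic acid alone, 24.8, 36.8 and 25.1 after curcumin, and 27.1, 28 and 23.7 after curcumin with CuCl2, which overlapped. The interval of its log2 fold change with curcumin was the widest upward of the members, from -0.15 to 0.83. Without the third library with palmitic acid alone, the log2 fold change of LBR was 0.09 with curcumin and -0.02 with curcumin and CuCl2, the latter of the same sign as that of TM7SF2 (-0.50).

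With all libraries, the other sterol enzymes stayed closer to 0. NSDHL varied least of the 12, with 60.3 to 66.1 TPM over the 9 libraries, and its log2 fold changes were 0.03 (-0.12 to 0.18) and 0.05 (-0.10 to 0.19). With all libraries, LSS was the only other sterol enzyme with a log2 fold change below -0.1. Its values were -0.13 (-0.39 to 0.12) with curcumin and -0.15 (-0.40 to 0.11) with curcumin and CuCl2. Without the third library with palmitic acid alone, LSS (-0.21 and -0.22), SC5D (-0.16 and -0.20) and DHCR7 (-0.16 and -0.16) lay below -0.1 in both comparisons. In that fit SQLE was at -0.18 with curcumin and -0.06 with curcumin and CuCl2, and EBP was at 0.16 in both. The handling genes STARD4 and SOAT1 had log2 fold changes of -0.10 and -0.08 with curcumin and of -0.10 and -0.09 with curcumin and CuCl2. Leaving out the third library with palmitic acid alone gave -0.36 and -0.31 in both comparisons.

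The second comparison set curcumin with CuCl2 against palmitic acid alone, whose libraries it shares with the first comparison. None of the 26 members passed limma's test at an adjusted p under 0.05, where 194 genes, 1.44% of all tested, passed. At an unadjusted p under 0.05 there were 5 members, the 4 named for curcumin and TM7SF2, with the same signs, beside 13.5% of all genes. The median log2 fold change was 0.05 over the members and -0.03 over all genes, and 17 of 26 members (65.4%) were positive beside 43.8% of all genes. When the third library with palmitic acid alone was left out, 11 were positive and their median was -0.02, beside -0.10 for all genes. Libraries did not overlap for 4 members with higher values (IDI1, FDPS, MSMO1 and INSIG1), as for 8.67% of all genes, and for 1 with lower values (TM7SF2), as for 10.3% of all genes.

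Curcumin with CuCl2 was set against curcumin alone to ask what CuCl2 added, and this is the test of the difference between the previous comparisons. No member passed limma's adjusted threshold, and neither did any of the 13443 genes (0%). None of the 26 members had an unadjusted p under 0.05, against 215 genes (1.6%). FDPS was the only member whose libraries did not overlap, as for 6.24% of all genes. Of the members, 13 had positive and 13 negative log2 fold changes, with a median of 0.0026. The highest was that of INSIG2, 0.27 (-0.12 to 0.66), and INSIG1 had 0.06 (-0.21 to 0.32).

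The 95% intervals give the sizes of difference that these libraries leave possible, gene by gene and without adjustment over the 26 members. In each of the 3 comparisons the intervals of all 26 members lay inside a 2-fold difference either way. They lay inside a 1.5-fold difference for 21 members with curcumin, for 21 with curcumin and CuCl2, and for 24 between the curcumin groups. The exceptions were HMGCS1, TM7SF2, LBR, INSIG2 and STARD4 with curcumin. Without the third library with palmitic acid alone, the curcumin intervals of HMGCS1 (-0.44 to 0.43) and LBR (-0.29 to 0.46) lay inside 1.5-fold. In that fit those of SREBF2 (-0.60 to -0.15) and SOAT1 (-0.64 to 0.03) reached outside it. With all libraries, the exceptions with curcumin and CuCl2 were HMGCS1, TM7SF2, LBR, INSIG1 and STARD4, and between the curcumin groups LBR and INSIG2.

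**Figure D2:**
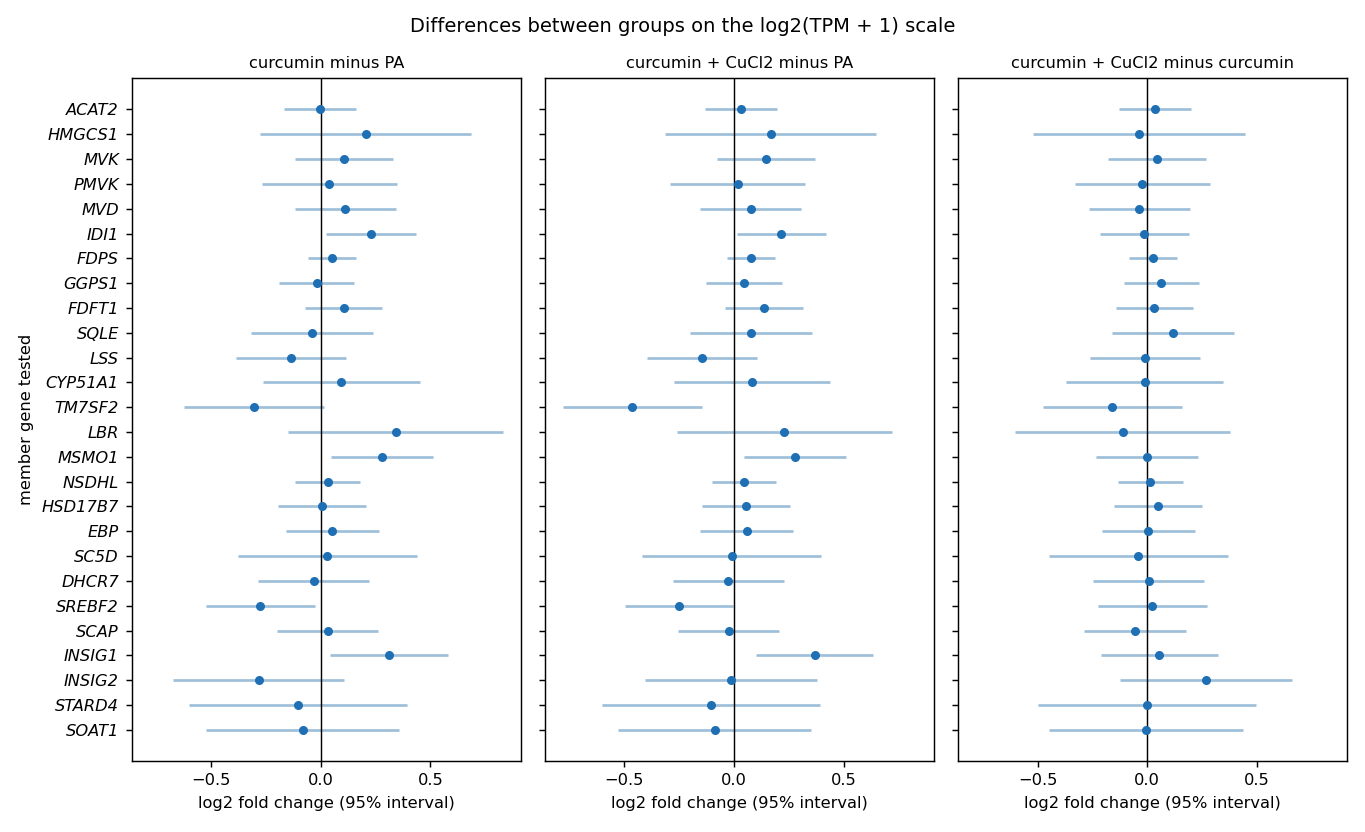
Log2 fold change of the 26 members tested on the log2(TPM + 1) scale in 3 comparisons, as points with 95% intervals from limma. INSIG1, IDI1 and MSMO1 lie to the right of 0 and SREBF2 to the left in both comparisons with palmitic acid alone, TM7SF2 has the lowest value with CuCl2 (-0.46), and all intervals cross 0 between the curcumin groups.

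Between the replicates of a group the members varied together, as did the genes at large. Of the shares given here, that of the first curcumin library differed most from the share of all genes. The third library with palmitic acid alone held the lowest value of its group for 18 of the 26 members tested (69.2%) and for 61.4% of all genes tested. The first curcumin library was lowest for 18 of the 26 (69.2%), against 31.6% of all genes, and the second was highest for 16 (61.5%), against 54.4%. The second library with CuCl2 was highest for 16 (61.5%), against 49.8%. In the third library with palmitic acid alone, log2(TPM + 1) of STARD4 and LBR was below the mean of the other 2 libraries of its group by 0.76 each, of SOAT1 by 0.68 and of HMGCS1 by 0.62. In the same library PMVK was above that mean by 0.38, EBP by 0.31, MVD by 0.24 and MVK by 0.20.

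Many of these deviations, though not all, went with transcript length, a relation looked for after the values had been seen. Lengths were medians over a gene's transcripts in the GENCODE 29 basic set, and the members split at 2166 bases into 13 longer and 13 shorter ones. The third library with palmitic acid alone was below the other 2 in 13 of 13 longer members and in 87.2% of the longer genes among all tested. Of the shorter members it was below in 6 of 13, and in 53.7% of the shorter genes. STARD4 (1467 bases) and INSIG2 (1968.5 bases) were exceptions among the shorter members, with deviations of -0.76, the lowest of all members, and -0.60 in that library. The second curcumin library was above the other 2 of its group in 12 of 13 longer members (78.6% of longer genes), and the first was below in 13 of 13 (70.0%). Across the 26 members Spearman's rho between deviation and length was -0.581 in the third library with palmitic acid alone, and across all genes with a length it was -0.463. Genes of 1 library are not independent, and RNA quality was not tested.

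**Figure D3:**
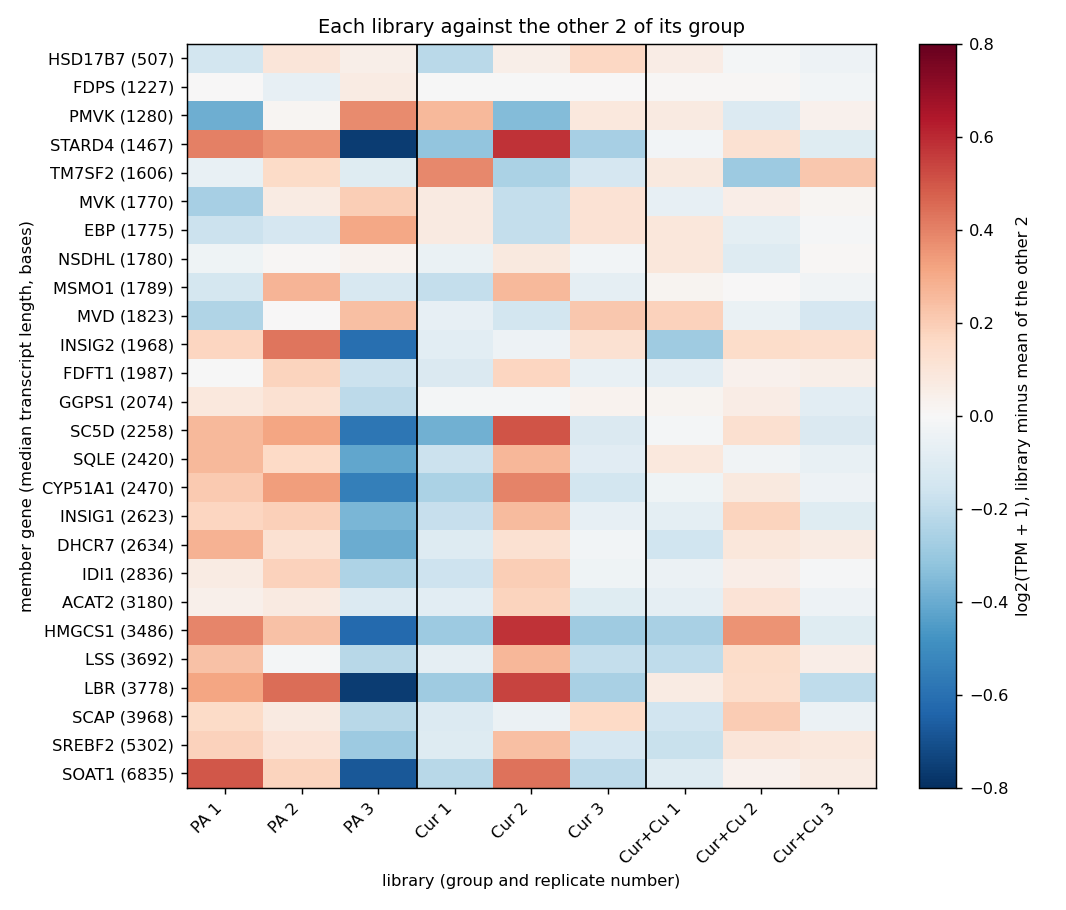
Deviation of each library from the mean of the other 2 of its group in log2(TPM + 1), for the 26 members tested, ordered from the shortest to the longest median transcript (bases in brackets). The longer members are low (blue) in the third library with palmitic acid alone and high (red) in the second curcumin library, while PMVK and EBP go the other way and the shorter STARD4 and INSIG2 are also low in the former.

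The level of 13 of the 26 members, as log2(TPM + 1), was linearly related to the mitochondrial share of the libraries. For these, Pearson's r between log2(TPM + 1) and that share over the 9 libraries passed an exact permutation test, adjusted by Benjamini-Hochberg over 13443 genes. The sign was positive for 9 members (HMGCS1, SQLE, LSS, CYP51A1, SC5D, DHCR7, SREBF2, STARD4 and SOAT1) and negative for 4 (MVK, PMVK, MVD and EBP). Of all genes, 27.6% passed with a positive and 4.33% with a negative sign. EBP gave r = -0.979 and Spearman's rho = -0.933 (exact permutation p = 3.58e-05 and 0.00075, adjusted 0.0023 and 0.0117, n = 9), and r = -0.964 without the 2 libraries farthest from the median share, the first and the third with palmitic acid alone. SOAT1 gave r = 0.965 and rho = 0.95 (exact permutation p = 4.68e-05 and 0.000353, adjusted 0.0023 and 0.0105, n = 9), and r = 0.940 without those 2. Of the 13, 9 also passed on rho, while MVK, MVD, SQLE and SREBF2 did not (exact permutation, adjusted p = 0.353, 0.0823, 0.0535 and 0.0623 on rho). Outside the 13, INSIG2 passed on rho (0.817, exact permutation, adjusted p = 0.0456) but not on r (0.703, exact permutation, adjusted p = 0.0999). Without those 2 libraries r kept its sign in all 13 members, at 0.666 (SQLE) to 0.940 (SOAT1) and at -0.964 (EBP) to -0.645 (MVK). For INSIG1 (r = 0.368), IDI1 (r = 0.370), MSMO1 (r = 0.105) and TM7SF2 (r = 0.035) the relation did not pass. The share is itself part of the fixed TPM total, and its part in the differences between groups was not tested beyond the fit that follows.

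**Figure D4:**
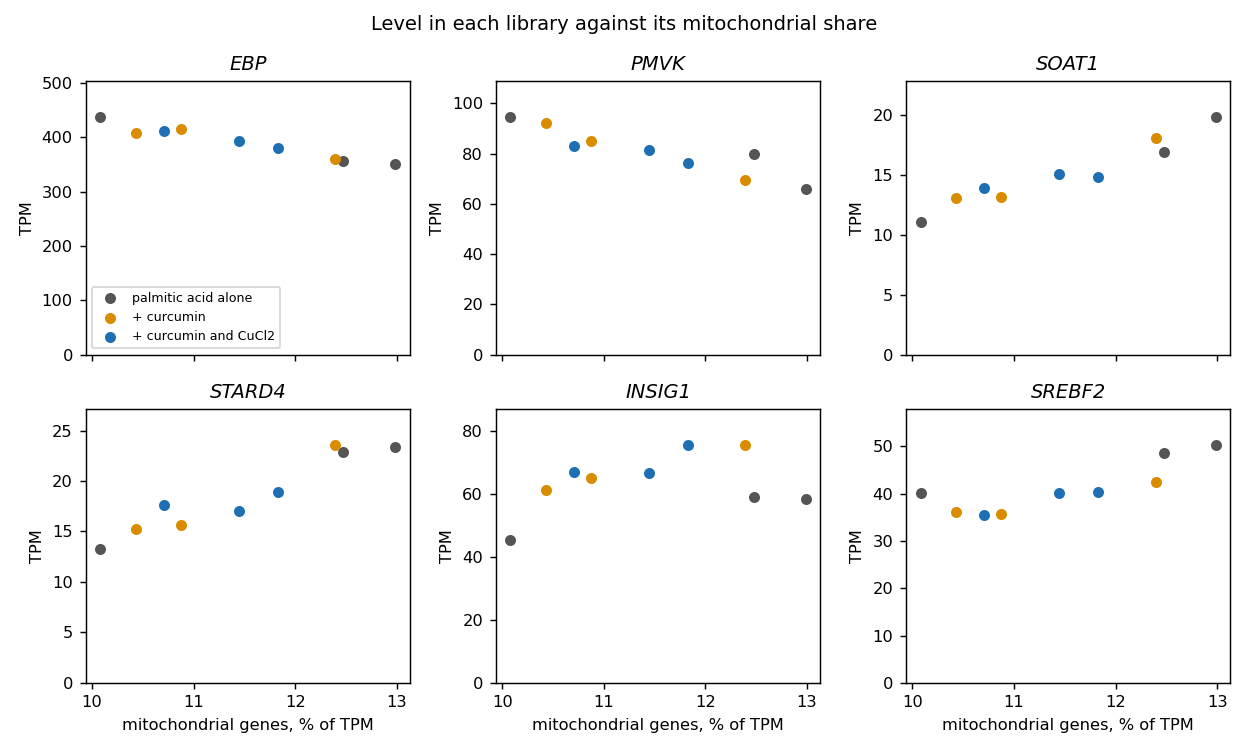
TPM of 6 members in each of the 9 libraries against the percent of TPM in mitochondrial genes, coloured by group. EBP and PMVK are lower and SOAT1 and STARD4 higher at a higher share in all groups together, whereas for INSIG1 the libraries with palmitic acid alone lie below the curcumin libraries of a like share, and for SREBF2 above them.

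With the mitochondrial share of each library as a covariate in limma, 5 of 26 members passed the adjusted threshold for curcumin against palmitic acid alone, beside 11.2% of all genes. INSIG1 was higher by 0.40 on the log2 scale (SE 0.05, limma adjusted p = 0.00337), IDI1 by 0.29 (SE 0.05, adjusted p = 0.00897), LBR by 0.50 (SE 0.11, adjusted p = 0.0232) and HMGCS1 by 0.37 (SE 0.08, adjusted p = 0.0199). SREBF2 fell by 0.20 (SE 0.05, limma adjusted p = 0.0341). For curcumin with CuCl2, 4 members passed beside 10.7% of all genes: INSIG1 (0.44, limma adjusted p = 0.00233), IDI1 (0.26, 0.0118), HMGCS1 (0.31, 0.0381) and SREBF2 (-0.19, 0.0424). When the third library with palmitic acid alone, which has the lowest share (10.1%), was also left out, none of the 26 members passed in either comparison, beside 1.42% and 1.41% of all genes. Leaving out any other single library gave 1 to 7 members with curcumin, beside 2.57% to 9.5% of all genes. With curcumin and CuCl2 it gave 2 to 4 members, beside 4.25% to 8.77% of all genes, and INSIG1 was among them each time. Under median-of-ratios scaling without the covariate, INSIG1 passed for curcumin with CuCl2 (0.40, SE 0.08, limma adjusted p = 0.0363), beside 1.89% of all genes.

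**Figure D5:**
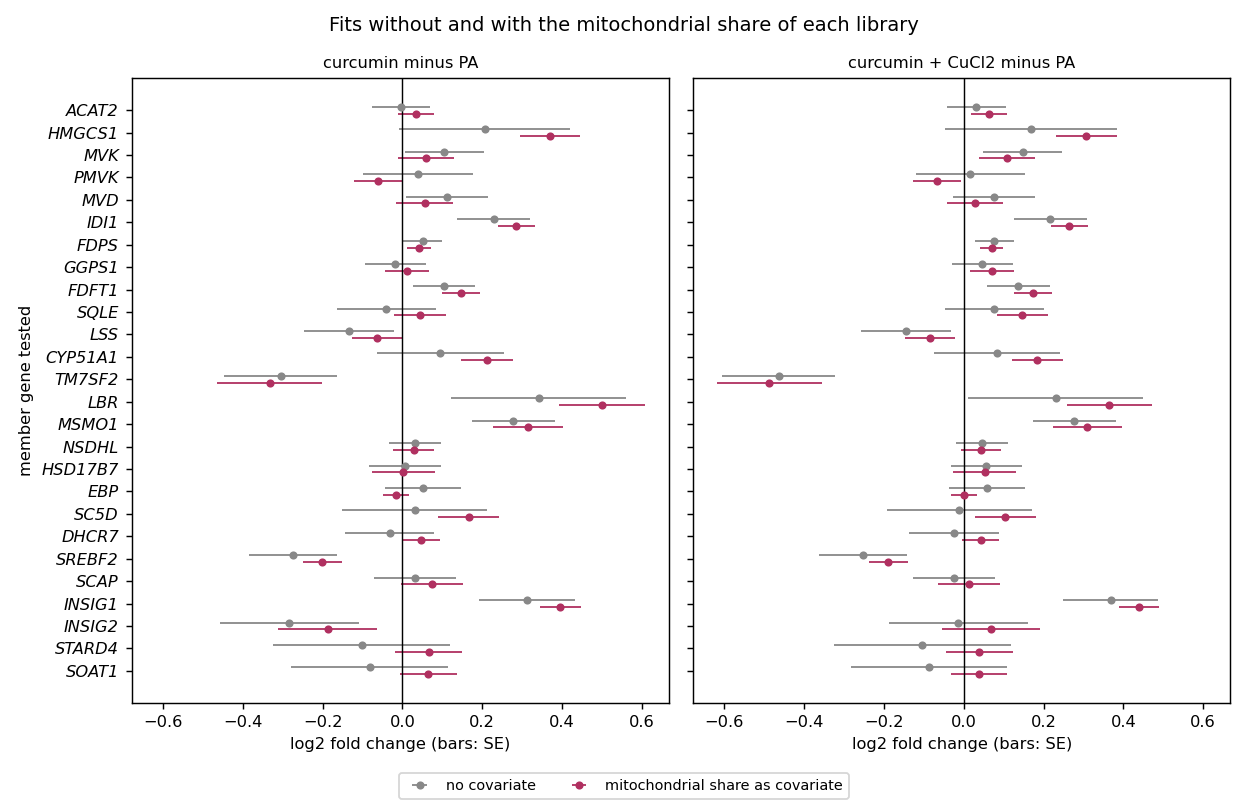
Log2 fold change of the 26 members against palmitic acid alone, with bars of 1 SE, from the fit without a covariate (grey) and with the mitochondrial share of each library as a covariate (red). The SE narrows for most members, and INSIG1 moves from 0.31 to 0.40 with curcumin and from 0.37 to 0.44 with curcumin and CuCl2.

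Genes around the pathway were read from 5 lists. Of the 12 genes that process SREBP or degrade sterol-sensing proteins, none passed limma's test in any comparison, and the median log2 fold change was -0.03 in both comparisons with palmitic acid alone. AUP1, a membrane protein of endoplasmic reticulum degradation, had the highest mean of these at 180 TPM. Of the 13 genes of the isoprenoid branch none passed, with medians of 0.01 and -0.01, and RABGGTB, a subunit of Rab prenylation, was the most abundant at 296 TPM. Of the 5 oxysterol enzymes only HSD3B7 was tested, at a mean of 9.30 TPM, and it did not pass.

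The LXR list gave 1 gene that rose with curcumin, out of 6 tested of 9 listed. NR1H3, which encodes LXR alpha, had 18.9, 18 and 22.6 TPM under palmitic acid alone, 29.3, 30.4 and 31.1 after curcumin, and 27.9, 24.3 and 28.9 after curcumin with CuCl2. All libraries with curcumin were above those without it. The log2 fold change was 0.59 (SE 0.10, limma adjusted p = 0.0268) with curcumin, and 0.43 with curcumin and CuCl2 (limma adjusted p = 0.0854), which did not pass. The call held in 10 of 21 alternative fits. It was lost on leaving out any 1 library except the third with palmitic acid alone and the second with CuCl2 (limma adjusted p up to 0.120). NR1H2, which encodes LXR beta, was the most abundant of the list at 65 TPM. The median log2 fold change of the 6 genes was 0.26 with curcumin and 0.18 with curcumin and CuCl2. Of the LXR targets in the list, LPCAT3, a phospholipid-remodelling enzyme, averaged 28 TPM, and its libraries with curcumin were all above those without it. Its log2 fold changes of 0.47 and 0.40 did not pass (limma adjusted p = 0.111 and 0.179). SMPDL3A, a phosphodiesterase, had log2 fold changes of 0.03 and -0.0090. These targets are named here after their values were seen.

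Of the 13 genes tested of 15 listed for cholesterol uptake, transport and storage, 1 fell with curcumin. CAV1, the coat protein of caveolae, had 62, 57.5 and 44.8 TPM under palmitic acid alone, 36.1, 39.9 and 33.4 after curcumin, and 39.6, 41.5 and 40.2 after curcumin with CuCl2. It fell by 0.56 on the log2 scale with curcumin (SE 0.12, limma adjusted p = 0.0498), and had a log2 fold change of -0.42 with curcumin and CuCl2 (limma adjusted p = 0.138), which did not pass. The call held in 9 of 21 alternative fits. It was lost on leaving out any 1 library except the third with palmitic acid alone (limma adjusted p up to 0.195). The lysosomal cholesterol carrier NPC2 was the most abundant of the list at 477 TPM and did not pass in any comparison. It had 413 to 441 TPM with palmitic acid alone, 481 to 508 with curcumin and 483 to 522 with curcumin and CuCl2, without overlap with the first. In each comparison with palmitic acid alone, 1 of the 13 genes lay above without overlap and 2 lay below. Of all genes, 8.15% and 8.67% lay above and 8.61% and 10.3% below.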

How the data were processed

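The values are the TPM values the authors deposited, 1 table of 62703 lines by 9 libraries with 2 decimals, and every column adds up to 999999 to 1000001. The submitters' processing notes name the tools HISAT2 2.1.0 and RSEM 1.3.3 and the build GRCh38.p13 without their roles. Columns were matched to samples by name, and groups and replicate numbers came from the titles. TPM is no count, so log2(TPM + 1) was fitted in limma 3.58.1 (R 4.3.3): 1 mean per group over all 9 libraries, moderation with a variance trend, genes averaging 1 TPM or more (13443), two-sided tests, Benjamini-Hochberg adjustment over all of them, threshold 0.05. The fit was tested on simulated data. Python 3.11.15 with matplotlib 3.10.9 made the other values and figures. The 21 alternative fits changed the pseudocount, filter, scaling, libraries, block, trend, covariate or table lines, and fits with the covariate and 1 library left out were added after seeing the data. All 28 members are named, and of the other lists the genes past the threshold and the most abundant one. The members and lists were chosen with earlier results of these data known.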

Additional observations from a re-analysis of the deposited data

How the results depend on the processing

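No member passed the threshold in any comparison without 1 library (0 to 0 over the 9 fits in each of the 3 comparisons). The count of members past the threshold moved from 0 to 5 with curcumin and to 4 with curcumin and CuCl2 with the mitochondrial share as a covariate, and to 1 with curcumin and CuCl2 under median-of-ratios scaling. With the covariate and 1 library left out, it was 0 to 7 with curcumin (1.42% to 9.5% of all genes passed), 0 to 4 with curcumin and CuCl2 (1.41% to 8.77% of all genes), and 0 to 0 between the curcumin groups.

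Counts over all genes moved more. With curcumin, 264 genes passed, and 104 did with no filter, 35 with only the 2 groups fitted, 130 with no variance trend, 1505 with the covariate and 54 to 619 without 1 library. With curcumin and CuCl2, 194 passed, and 114 did with no filter, 65 with only the 2 groups fitted, 1436 with the covariate and 46 to 527 without 1 library. Between the curcumin groups 0 passed, and 1 did with a pseudocount of 5, 3 with no filter, 3 with only the 2 groups fitted, 2 without lines lacking a symbol, and 0 to 4 without 1 library. The covariate also changed the split: 862 genes were higher and 643 lower with curcumin, where it was 102 and 162 without it, and 761 and 675 with curcumin and CuCl2, where it was 73 and 121.

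Without the third library with palmitic acid alone, the median log2 fold change of the members was -0.02 in both comparisons with that group, where that of all genes was -0.09 and -0.10, and 12 and 11 of the 26 members were positive. The cause was not tested. Deviations of same-numbered libraries correlated at -0.269 to 0.246 (9 pairs), and of others at -0.382 to 0.262. These ranges overlap. Deviations within groups of 3 libraries, many of which went with transcript length, cannot show whether replicate numbers pair the samples. With a replicate block, 177, 147 and 0 genes passed in the 3 comparisons, and no member. Depth is unknown, so no counting limit can be given, and 3 libraries per group limit the precision.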
